A study of Homo sapiens with 14 samples.

Results

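The 14-3-3 genes comprised 7 of the 21574 genes in the table of RPKM values (reads per kilobase of transcript, scaled to the aligned reads of the library): YWHAH (14-3-3 eta), YWHAZ (zeta), YWHAB (beta), YWHAE (epsilon), YWHAQ (theta), YWHAG (gamma) and SFN (sigma). They were taken by gene symbol, as the complete human family, after the levels of YWHAH with and without ADAR1 siRNA were known. Comparisons of the 7 genes between knockdown and control are therefore given as values with no test. For 3 of the 7 genes, YWHAH, YWHAE and SFN, the sources used here also name a transcript in the tables of read starts per base. The transcripts of the other 4 are not analysed here.

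All 14 samples were labelled as HepG2, a hepatoma line, and carried either a scrambled siRNA (control) or an siRNA against ADAR1 (KD), the adenosine deaminase that edits adenosine to inosine in double-stranded RNA. Both groups were transfected, and the methods give 48 h of siRNA at 20 uM. PARS-seq, in which poly-A RNA is cut either by S1 nuclease at unpaired bases or by RNase V1 at paired bases and the ends of the fragments are sequenced, had 8 libraries, 2 for each nuclease and condition. RNA-seq had 1 library per condition and Ribo-seq, which sequences ribosome-protected fragments, had 2 per condition. The RPKM table holds 10 columns, of which the 4 for PARS-seq are the authors' means, each over 1 S1 and 1 V1 library with the same number. The S1 and V1 libraries with the same number come, by the study's account, from the same control sample. The study also sets each control beside the KD of the same number in its comparison of profiles, without saying what the 2 share, and ratios are given below for same-numbered pairs.

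ADAR was lower in KD in every same-numbered pair, with 40.7 and 46.8 RPKM in control and 15.1 and 15.1 in KD in PARS-seq, and with 54.8 against 15.4 in RNA-seq. In Ribo-seq it stood at 43.6 against 8.73 in the first pair but at 55.5 against 44.03 in the second. Markers of the labelled cell type were near 0. The 9 hepatocyte genes summed to 0.610 RPKM in RNA-seq control and 0.928 in RNA-seq KD, to 0.310 to 0.468 in PARS-seq and to 0 to 2.64 in Ribo-seq, and neither ALB nor AFP passed 0.0442 RPKM in any column. The 5 fibroblast genes summed to 103 to 119 RPKM in PARS-seq control and 68.2 to 87.7 in PARS-seq KD, and to 79.3 and 54.4 in RNA-seq. They summed to 46.1 to 150.1 in Ribo-seq control and 47.9 to 110.8 in Ribo-seq KD, with COL1A2 at no more than 0.123, while the 5 leukocyte and the 3 endothelial genes stayed at or below 1.05 and 0.620. The part of these differences in the values below was not tested, and the samples are called by their siRNA only. Read starts on the 4722 transcripts listed in all 8 PARS-seq libraries ranged from 88565995 to 197781370 per library. The RPKM table holds no numbers of reads. By the most common ratio between the lowest values, Ribo-seq control 2 was 3.34 times as deep as control 1, KD 1 was 1.41 times and KD 2 was 2.42 times as deep, and RNA-seq KD was 0.742 times as deep as RNA-seq control.

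The 14-3-3 proteins are small acidic adaptors that work as dimers. Each subunit has a groove that holds a short phosphorylated serine or threonine motif of a client protein, and the dimer so keeps clients such as RAF kinases, BAD, FOXO factors, CDC25 phosphatases and YAP1 in a given place or shape. Most isoforms form mixed dimers, while sigma prefers to pair with itself and is the isoform of epithelial cells that p53 induces. In the innate response to double-stranded RNA, epsilon is known to help carry RIG-I to the mitochondrion with TRIM25, and eta is known to do the same for MDA5.

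The coding sequences share long runs of letters, which bears on which reads can be told apart. The stretch below is shown because it is the part of the YWHAH coding sequence in which most bases were called paired or unpaired in every PARS-seq profile, and because it can be set beside the same stretch of the other members. It holds coding bases 28 to 87 of YWHAH, at chr22:32340747-32340806 on the plus strand of hg19, in exon 1. The letters of the other genes are the aligned bases of their own coding sequence, from the GRCh37 genome and GENCODE annotation. Capitals mark the bases that equal those of YWHAH, which numbered 50 of 60 in YWHAG, 49 in YWHAQ, 44 in YWHAE, 43 in YWHAZ (not printed), 42 in SFN and 41 in YWHAB.
YWHAH: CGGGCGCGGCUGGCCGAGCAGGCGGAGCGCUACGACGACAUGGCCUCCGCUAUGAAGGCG
YWHAG: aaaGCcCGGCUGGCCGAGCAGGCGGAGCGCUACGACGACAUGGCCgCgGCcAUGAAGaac
YWHAQ: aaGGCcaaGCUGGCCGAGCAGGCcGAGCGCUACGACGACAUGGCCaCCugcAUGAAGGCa
YWHAE: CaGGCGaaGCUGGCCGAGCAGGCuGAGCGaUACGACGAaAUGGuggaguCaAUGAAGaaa
SFN: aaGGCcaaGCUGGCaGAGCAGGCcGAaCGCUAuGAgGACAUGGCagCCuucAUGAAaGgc
YWHAB: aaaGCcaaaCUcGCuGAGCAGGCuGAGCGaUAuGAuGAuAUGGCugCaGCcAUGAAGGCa
The YWHAG stretch lies at chr7:75988039-75988098 on the minus strand, the YWHAQ stretch at chr2:9770498-9770557 on the minus strand, the YWHAB stretch at chr20:43530205-43530264 on the plus strand and the SFN stretch at chr1:27189728-27189787 on the plus strand. The YWHAE stretch on the minus strand of chromosome 17 crosses an exon junction.

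YWHAH was the lowest of the 7 genes in control PARS-seq and RNA-seq and was higher in KD in every assay. In PARS-seq it stood at 30.3 and 43.0 RPKM in control and at 138.9 and 203.8 in KD. The RNA-seq values were 32.7 RPKM for control and 109.1 for KD. In Ribo-seq the control libraries held 32.1 and 23.5 RPKM, and the KD libraries 79.7 and 54.2. In PARS-seq and in Ribo-seq both KD values lay above both control values, with no overlap. In PARS-seq the ranges were also separate, in either direction, for every other member but YWHAE. The share of all genes with separate ranges was not counted, so that separate ranges alone do not set a member apart. The ratios of KD to control were 4.58 and 4.74 in PARS-seq, 3.34 in RNA-seq and 2.49 and 2.31 in Ribo-seq, so that they were smaller in ribosome-protected fragments than in the other assays. On the scale of log2(RPKM + 1), which understates the ratio of low genes, the mean difference was 2.19 in PARS-seq, 1.71 in RNA-seq and 1.23 in Ribo-seq. This placed YWHAH at rank 4 of 11153 genes with a mean of at least 1 RPKM in PARS-seq, at rank 12 of 10946 in RNA-seq and at rank 85 of 10882 in Ribo-seq, ordered from the largest difference down. These are the values the genes were chosen by. A bulk level does not tell fewer cells with a gene from less RNA in each cell.

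**Figure D1:**
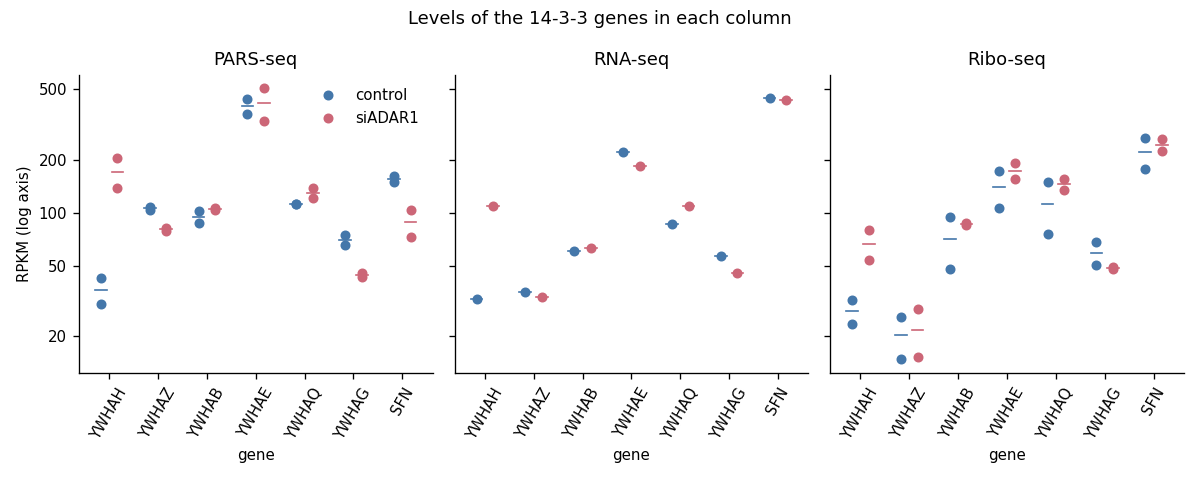
RPKM (log axis) of the 7 genes of the 14-3-3 family in PARS-seq, RNA-seq and Ribo-seq, with 1 point for each column of control or KD. YWHAH sat at 23.5 to 43.0 RPKM in control and at 54.2 to 203.8 in KD. In PARS-seq the control and KD values were separate for every gene but YWHAE, and in Ribo-seq for YWHAH and YWHAG.

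YWHAZ, the zeta isoform and a general adaptor of kinase signalling, was lower in KD in PARS-seq, with 108.4 and 104.1 RPKM in control and 82.1 and 79.1 in KD. Its RNA-seq values were 35.4 and 33.3, and its Ribo-seq values were 14.9 and 25.8 in control and 15.2 and 28.5 in KD, which overlapped. YWHAG, the gamma isoform, was lower in KD in both replicated assays, at 65.4 and 74.8 against 46.0 and 43.4 RPKM in PARS-seq and at 68.3 and 50.8 against 48.3 and 49.6 in Ribo-seq, and at 57.1 against 45.5 in RNA-seq. Its ranges did not overlap in either assay, and the nearest Ribo-seq values were 50.8 in control and 49.6 in KD.

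SFN, the sigma isoform and p53 target, stood at 149.8 and 161.95 RPKM in control and at 73.4 and 103.8 in KD in PARS-seq. This difference was not seen at the same size in the other assays, with 444.8 and 435.9 RPKM in RNA-seq and 266.6 and 176.9 against 261.5 and 225.1 in Ribo-seq. On the log2(RPKM + 1) scale the mean difference of SFN was -0.83 in PARS-seq, -0.03 in RNA-seq and 0.16 in Ribo-seq.

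YWHAE, the epsilon isoform, which prefers mixed dimers, was the most abundant member in PARS-seq, at 362.03 and 439.8 RPKM in control and at 332.4 and 507.4 in KD. RNA-seq gave 220.1 and 183.5, and Ribo-seq gave 172.8 and 106.0 in control and 190.6 and 155.4 in KD. The ranges overlapped in both replicated assays. YWHAB, the beta isoform, stood at 102.7 and 87.8 RPKM against 103.8 and 106.0 in PARS-seq, at 60.7 against 63.6 in RNA-seq and at 94.8 and 48.4 against 87.6 and 85.7 in Ribo-seq. YWHAQ, the theta isoform, stood at 112.3 and 112.1 against 121.03 and 137.6 in PARS-seq, at 87.0 against 109.6 in RNA-seq and at 148.8 and 76.1 against 155.1 and 135.1 in Ribo-seq. For both genes the KD values lay above the control values in PARS-seq and within or across the control range in Ribo-seq.

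Ribo-seq control 2, the deepest of the 4 Ribo-seq libraries, gave lower values than control 1 for all members but YWHAZ. The mean log2 difference in Ribo-seq of the 6 genes other than YWHAH lay between -0.26 (YWHAG) and 0.44 (YWHAQ). In PARS-seq it lay between -0.83 (SFN) and 0.20 (YWHAQ). The sign of the mean turned for YWHAZ in Ribo-seq when the columns were scaled to a common median. The pairs had opposite signs for YWHAB and SFN in Ribo-seq and for YWHAE in PARS-seq.

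**Figure D2:**
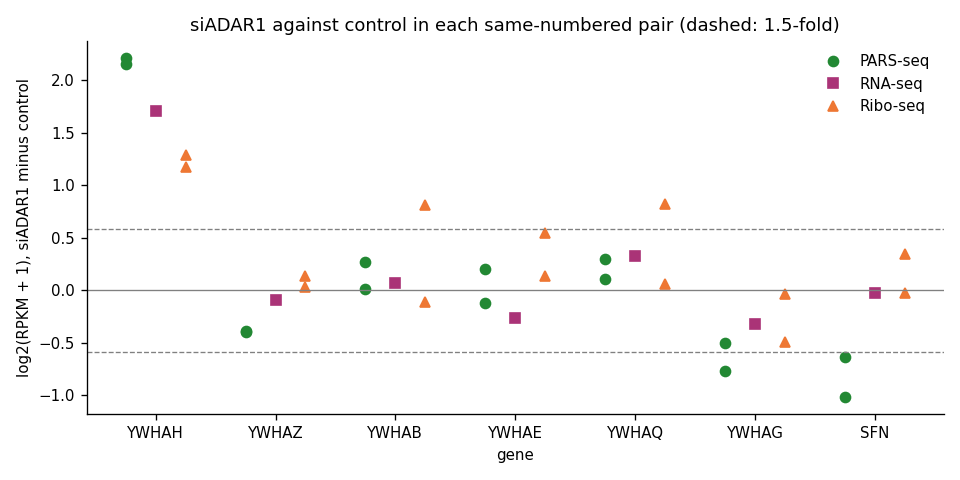
Log2(RPKM + 1) of KD minus control for each of the 7 genes, with 1 point per same-numbered pair in PARS-seq, RNA-seq and Ribo-seq. YWHAH lies above 1 in every pair, and the PARS-seq points of SFN, YWHAG and YWHAZ lie below 0.

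Counted over the family, 1 of 7 genes, YWHAH, was higher in KD by 1.5-fold or more in every pair of PARS-seq, beside 5.88% of all genes. The same single gene was higher in RNA-seq, beside 4.47% of all genes, and in both pairs of Ribo-seq, beside 2.67%. YWHAH was also 1 of the 41 genes that were higher in all 5 pairs together, which is 0.418% of 9805 genes. In the lower direction SFN alone passed in PARS-seq, beside 6.05% of all genes, and 0 of 7 passed in RNA-seq and in Ribo-seq, beside 4.66% and 1.81%. Since the family was proposed with these contrasts known, the counts describe the members only. The median log2 difference over the 7 genes was 0.04 in PARS-seq, -0.03 in RNA-seq and 0.34 in Ribo-seq, beside 0.04, -0.01 and 0.08 over all genes. The medians of the family differed between the pairs. They were 0.03 and 0.55 in the first and second Ribo-seq pair, beside -0.02 and 0.16 over all genes, and -0.12 and 0.21 in the PARS-seq pairs, beside 0.04 and 0.04.

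The order of the members depended on the assay. In control PARS-seq it ran YWHAE, SFN, YWHAQ, YWHAZ, YWHAB, YWHAG and YWHAH from high to low, with no overlap between neighbours. In RNA-seq control SFN was first at 444.8 RPKM and YWHAZ and YWHAH were last at 35.4 and 32.7. In Ribo-seq control the order was SFN, YWHAE, YWHAQ, YWHAB, YWHAG, YWHAH and YWHAZ, and the ranges of YWHAE and YWHAQ, of YWHAQ and YWHAB, of YWHAB and YWHAG and of YWHAH and YWHAZ overlapped. In KD YWHAH came 2nd in PARS-seq, 4th in RNA-seq and 5th in Ribo-seq.

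The members differ in how much of their transcript can be read uniquely, and the authors kept only uniquely aligned reads. Of all stretches of 30 bases in the YWHAH transcript, 0.581% also occur elsewhere in GRCh37, and of those in the YWHAG transcript 0.272%. Neither gene has an annotated pseudogene there. SFN was also nearly unique, at 2.19%, and YWHAB stood at 12.1% with 2 annotated pseudogenes. In contrast, 51.5% of the YWHAZ stretches, 46.4% of the YWHAQ stretches and 34.6% of the YWHAE stretches occur elsewhere, with 9, 8 and 6 annotated pseudogenes. In the coding sequence this share was 91.7% for YWHAZ, 51.3% for YWHAE and 17.5% for YWHAQ. The levels of YWHAZ, YWHAQ and YWHAE relative to the other members are uncertain for this reason, and the low Ribo-seq level of YWHAZ, whose protected fragments come from coding sequence, stands beside the share of 91.7%. Whether the repeats set these levels was not tested.

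YWHAH made up 3.26% and 4.20% of the summed RPKM of the family in control PARS-seq and 15.5% and 17.3% in KD. The share was 3.49% against 11.1% in RNA-seq, and 4.02% and 4.62% against 9.51% and 7.39% in Ribo-seq. The KD shares lay above the control shares in each replicated assay. A share within a column does not depend on the scaling of the column, though it does on the level of the abundant members. The summed level of the family itself was 931 RPKM in control and 898 in KD in the first PARS-seq pair, and 1024 and 1181 in the second. It was 938 and 981 in RNA-seq, and 798 and 838, and then 507 and 734, in the 2 pairs of Ribo-seq. The KD to control ratio of the sum was thus 0.964 and 1.15 in PARS-seq, 1.05 in RNA-seq and 1.05 and 1.45 in Ribo-seq, and that of the 6 other genes together was 0.842, 0.997, 0.963, 0.990 and 1.40. Leaving out the pair with the deep Ribo-seq control 2, the sum of the family differed by no more than 1.15-fold between conditions.

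**Figure D3:**
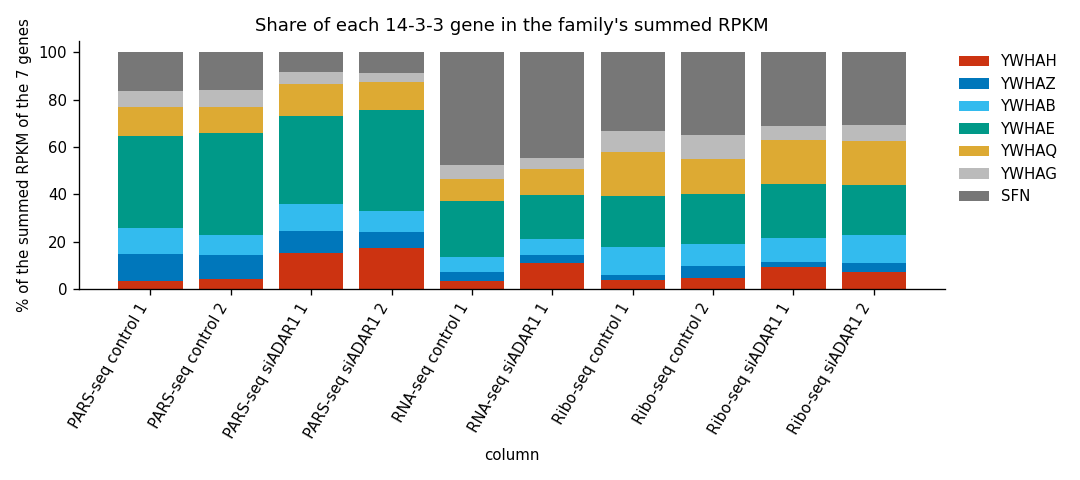
Share (percent, stacked bars from 0) of each of the 7 genes in the summed RPKM of the family in the 10 columns. YWHAH takes 3.26% to 4.62% in the control columns and 7.39% to 17.3% in the KD columns.

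The ratio of Ribo-seq to RNA-seq RPKM gives a measure of ribosome occupancy per transcript. In the control columns YWHAH had 0.980 and 0.718, against 0.731 and 0.497 for KD, and the ranges overlapped. Relative to the median of 10142 genes in the same column, the log2 ratio was 0.36 and 0.15 for control, against -0.08 and -0.56 for KD, so that YWHAH lay above the typical gene in control and below it in KD. The KD to control ratio of this occupancy was 0.745 and 0.692 for YWHAH, the only member below 1 in both pairs. It was above 1 in both pairs for YWHAZ (1.09 and 1.18) and YWHAE (1.32 and 1.76), and for SFN it was 1.00 and 1.30. Both pairs share the single RNA-seq library of each condition, so that there is no replicate of the RNA level behind these ratios. The ratio divides by the RNA-seq change, which was known when YWHAH was singled out, so that a value below 1 was favoured by the choice. The share of all genes below 1 in both pairs was not counted.

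Proteins known to bind 14-3-3 dimers or to phosphorylate their clients were measured as a list of 49 genes, all of which were in the table. In PARS-seq 4 of 47 with a mean of at least 1 RPKM were higher in KD by 1.5-fold in both pairs (AKT1, IRS1, TRIM25 and PFKFB2), beside 5.88% of all genes, and 0 were lower, beside 6.05%. In RNA-seq 2 of 49 were higher (IRS1 and TRIM25) beside 4.47%, and in Ribo-seq 1 of 47 (TRIM25) beside 2.67%, with 0 lower in either assay, beside 4.66% and 1.81%. The median log2 difference of the list was 0.10 in PARS-seq, 0.15 in RNA-seq and -0.17 in Ribo-seq, where its medians in the single pairs were -0.0044 and -0.15. TRIM25, the ubiquitin ligase of RIG-I, shares its row with the microRNA gene MIR3614. It stood at 20.8 RPKM in control and 32.9 in KD in RNA-seq, with log2 differences of 0.87 and 0.96 in PARS-seq, 0.64 in RNA-seq and 0.68 and 0.61 in Ribo-seq. IRS1, an adaptor of the insulin receptor, stood at 2.53 against 5.002 RPKM in RNA-seq, and its log2 differences were 0.97 and 0.91 in PARS-seq, 0.77 in RNA-seq and 0.50 and -0.02 in Ribo-seq. DDX58, which encodes RIG-I, was at 0.785 against 1.56 RPKM in RNA-seq, and its differences went in both directions in the other assays, from -0.22 to 0.54.

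The 5 genes whose levels over the 10 columns were most like those of YWHAH, by Pearson's r of log2(RPKM + 1) after subtracting each column's median, among 5756 genes with a mean of at least 10 RPKM, were UNG (r = 0.956), B3GNT1 (0.9503), BAZ1B (0.933), LSM14A (0.927) and PGRMC2 (0.920). UNG is the uracil-DNA glycosylase of base excision repair and LSM14A a processing-body protein. The 10 columns share 2 conditions and 3 assays, so that the r values describe likeness only. LSM14A had the largest log2 differences of the 5, at 2.08 and 1.97 in PARS-seq, 1.12 in RNA-seq and 1.29 and 0.74 in Ribo-seq. Within the family r with YWHAH was -0.82 for YWHAG, -0.39 for SFN and 0.09 to 0.35 for the other 4.

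Read starts along the YWHAH transcript (uc003alz.3) were then followed library by library. The transcript is listed with 1807 bases and was placed on YWHAH-201 of GENCODE (chr22:32340521-32353590, plus strand, 2 exons) by the base preferences of the nucleases, since the deposited tables hold no sequence. The best placement had r = 0.440 against 0.207 for the next. It puts the coding sequence of 741 bases at listed bases 242 to 982, after 199 bases of 5′ UTR and before 811 bases of 3′ UTR. A position is that of the first base of a read, and the nuclease cut lies just 5′ of it.

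On YWHAH the S1 control libraries had 3034 and 3744 read starts and the S1 KD libraries 13652 and 12073. The V1 control libraries had 4823 and 6717 and the V1 KD libraries 28371 and 34098. All KD libraries were above all control libraries of the same nuclease. After scaling each library by the median of ratios over all transcripts, the counts were 2555 and 3616 against 13926 and 16813 for S1, and 4648 and 7241 against 21949 and 36715 for V1. The KD to control ratio was 5.45 and 4.65 with S1, which ranked 2nd of 4721 transcripts, and 4.72 and 5.07 with V1, which ranked 3rd. These libraries are the ones behind the PARS-seq RPKM, so that they are not a separate measurement of the level, but they show that the difference was held by both nucleases.

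For YWHAE the S1 read starts numbered 77714 and 79651 for control against 64044 and 65415 for KD, and the V1 read starts were 39158 and 43914 against 41944 and 51637. The scaled KD to control ratios were 0.998 and 1.18 with S1 and 0.860 and 1.17 with V1. For SFN there were 7237 and 7238 S1 read starts against 3012 and 3507, and 9438 and 11870 V1 read starts against 7104 and 7920, with scaled ratios of 0.504 and 0.699 with S1 and of 0.604 and 0.666 with V1. Of the 3 transcripts, 1 (YWHAH) was higher in KD by 1.5-fold or more in both pairs with S1, beside 5.93% of all transcripts, and with V1, beside 5.3%. With V1, 1 (SFN) was lower, beside 8.26% of all transcripts, and with S1 0 of the 3 were lower, beside 8.01%.

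The contrast between the nucleases within control did not enter the choice of the genes, and was tested with limma on log2 scaled read starts, 2 V1 libraries against 2 S1 libraries, with Benjamini-Hochberg adjustment over 4721 transcripts. In control, scaled over these 4 libraries alone, YWHAH had 2682 and 3781 read starts with S1 and 4842 and 7580 with V1, a log2 difference of 0.93 ± 0.27 (SE, limma adjusted p = 0.0696). SFN had a log2 difference of 0.72 ± 0.21 (limma adjusted p = 0.0671) and YWHAE one of -0.75 ± 0.20 (limma adjusted p = 0.0531). Relative to the typical transcript, YWHAH and SFN thus had more V1 and YWHAE more S1 read starts. This balance of sums is not a share of paired bases, and in the calls per base below YWHAE had more paired than unpaired bases. None of the 3 passed 0.05 in this fit, which has no replicate block. Of all transcripts, 6.8% were called higher and 9.34% lower in V1. With the replicate number as a block, which pairs the S1 and V1 libraries of the same control sample and leaves 1 residual degree of freedom, all 3 passed. The differences were then 0.93 ± 0.10 for YWHAH, 0.72 ± 0.11 for SFN and -0.75 ± 0.11 for YWHAE (SE, limma adjusted p = 0.000107, 0.000637 and 0.000501), beside 27.4% of all transcripts called higher and 26.6% lower. The differences stood at the 96.6th, 92.5th and 9.21st percentile of all transcripts for YWHAH, SFN and YWHAE. In KD, without a block, the values for YWHAH, SFN and YWHAE were 0.88 ± 0.26, 0.81 ± 0.30 and -0.87 ± 0.30 (limma adjusted p = 0.0624, 0.106 and 0.0878), beside 8.81% of all transcripts called higher and 11.7% lower. Leaving out single libraries moved the estimates of the unblocked fit in control in both directions, and some of the fits passed 0.05. Without V1 control 1 the difference of YWHAH was 1.25 (limma adjusted p = 0.000248) and that of SFN 0.97 (0.00597), and without S1 control 2 they were 1.18 (0.00553) and 0.82 (0.0374). Without V1 control 2 they were 0.60 (limma adjusted p = 0.164) and 0.46 (0.288), and without S1 control 1 they were 0.68 (0.0946) and 0.62 (0.117). For YWHAE the difference was -0.93 (limma adjusted p = 0.0250) without V1 control 2 and -0.87 (0.0413) without S1 control 1, but -0.58 (0.237) without V1 control 1 and -0.63 (0.140) without S1 control 2. The study describes its PARS-seq replicates as biological, and p-values measure the spread between these libraries.

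The 2 nucleases cut YWHAH in different regions. In the coding sequence lay 47.5% and 31.04% of the S1 read starts of the control libraries and 40.8% and 33.4% of those of the KD libraries. For V1 the coding shares were 19.8% and 11.4% in control, against 18.5% and 10.3% in KD. The 3′ UTR held 52.4% to 68.9% of S1 and 79.2% to 89.2% of V1 read starts, and the 5′ UTR 0.107% to 0.183% of S1 and 0.501% to 1.03% of V1. Every S1 library had a higher coding share than every V1 library. The first replicate had a higher coding share than the second for both nucleases and in both conditions, by more than the 95% exact binomial intervals, which cover counting error only (45.7% to 49.3% for S1 control 1).

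Within the transcript, the 100 bases from 301 to 400, in the coding sequence, held 19.2% and 15.8% of S1 read starts in control, with 19.3% and 18.4% in KD, against 6.63% and 4.60%, and 6.71% and 4.01%, of V1 read starts. The opposite pattern was found in the 3′ UTR, where bases 1601 to 1700 held 11.96% to 20.3% of S1 but 42.8% and 57.1% of V1 read starts in control, with 45.3% and 57.0% in KD. The next 100 bases, 1701 to 1800, turned back to S1, with 9.03% to 21.4% of S1 and 1.18% to 2.01% of V1 read starts. As log2 of V1 over S1 relative to the whole transcript, the window from 1601 was at 1.84 and 1.49 for control and 1.42 and 1.58 for KD. The window from 1701 was at -2.92 and -3.19 for control and -3.34 and -3.41 for KD. Neighbouring windows of the 3′ UTR thus differed by more than 4 on the log2 scale in each of the 4 profiles, and in both windows control and KD had the same sign.

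**Figure D4:**
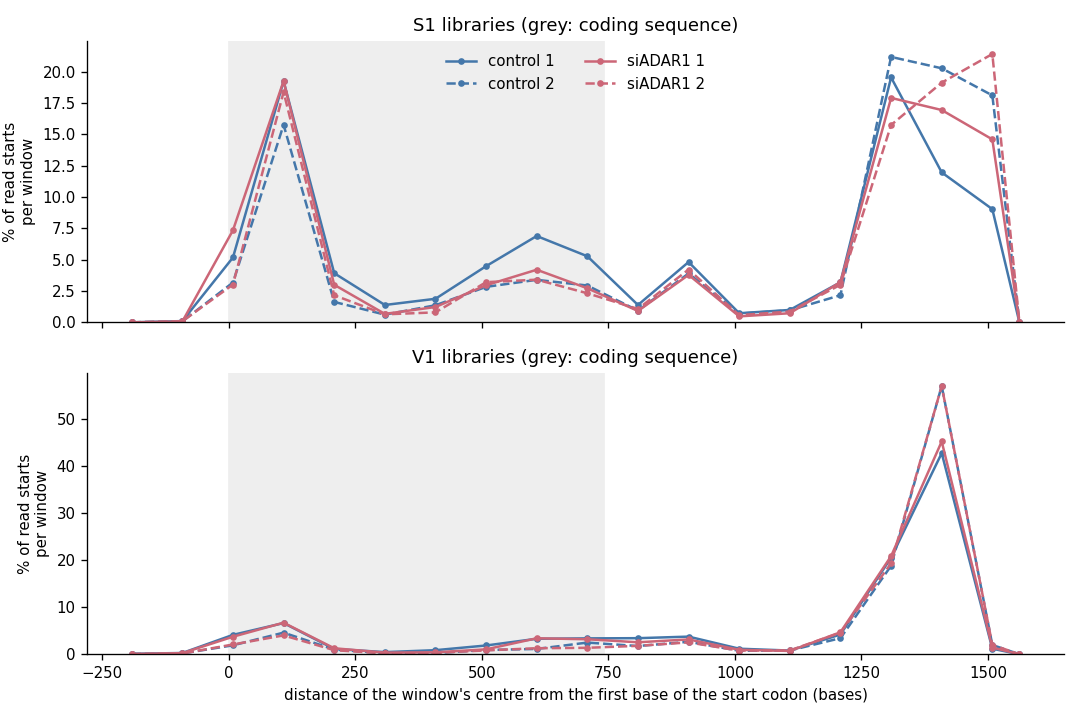
Read starts of YWHAH in windows of 100 bases, as percent of the transcript's read starts (vertical), for each of the 8 libraries. The horizontal axis gives the distance of the window's centre from the first base of the start codon, which is listed base 242. V1 libraries peak at listed bases 1601 to 1700 with 42.8% to 57.1%, and S1 libraries spread over the windows from listed bases 301, 1501, 1601 and 1701.

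**Figure D5:**
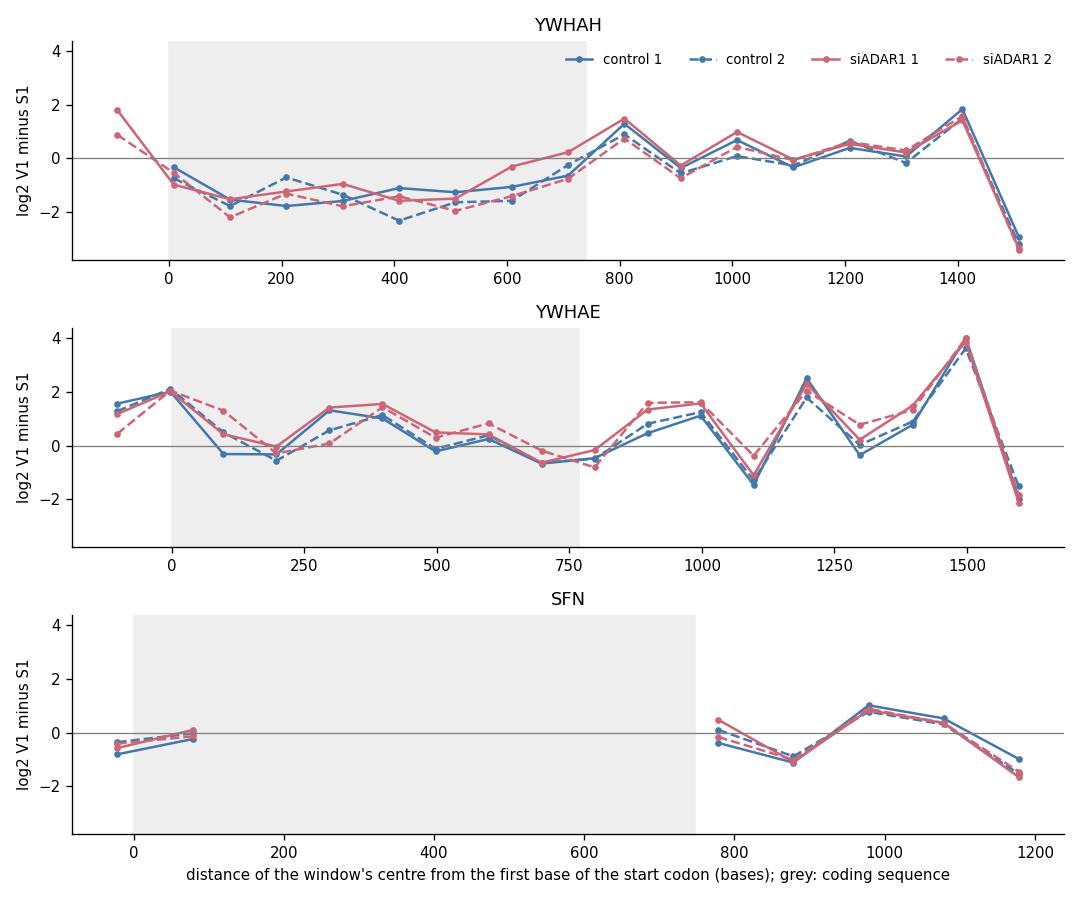
Log2 of V1 over S1 read starts, relative to the whole transcript, in windows of 100 bases of YWHAH, YWHAE and SFN, for control and KD replicates 1 and 2; windows with under 20 read starts are not drawn. The horizontal axis gives the distance of the window's centre from the first base of the start codon. In YWHAH the window from listed base 1601 lies at 1.42 to 1.84 and the next at -3.41 to -2.92.

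YWHAE resembled YWHAH near its 3′ end and differed from it in the coding sequence. In YWHAE (YWHAE-201, chr17:1247569-1303516, minus strand) 27.8% to 54.9% of S1 and 30.3% to 51.8% of V1 read starts lay in the coding sequence, so that the nucleases overlapped, unlike in YWHAH. In its 3′ UTR, bases 1601 to 1700 held 1.17% to 2.67% of S1 and 19.0% to 36.2% of V1 read starts, and bases 1701 to 1800 held 30.4% to 59.1% of S1 and 7.75% to 17.9% of V1 read starts. As log2 of V1 over S1 relative to the transcript, the window from 1601 was at 4.02 and 3.63 for control and 3.87 and 3.99 for KD, and the next at -1.97 and -1.52 for control and -2.12 and -1.84 for KD. Both transcripts thus had a window with more V1 followed by one with more S1, in all 4 profiles. The same step was found in SFN, with listed bases 1101 to 1200 at 0.31 to 0.53 and 1201 to 1300 at -1.65 to -0.97. It is therefore not particular to YWHAH and YWHAE. The listed YWHAE transcript ends before the 3′ end of YWHAE-201. In SFN (SFN-201, chr1:27189640-27190947, plus strand, 1 exon) 90.3% to 95.8% of S1 and 92.7% to 96.2% of V1 read starts lay in the 3′ UTR. The coding sequence of SFN held a gap of 617 bases, listed bases 154 to 770 (chr1:27189786-27190402), without a single read start in any of the 8 libraries. A count of 0 in a library is compatible with an expected number of up to 3 read starts, by counting error only. The longest such run was 17 bases in YWHAH and 54 in YWHAE. None of the stretches of 30 bases in the SFN coding sequence occurs elsewhere in GRCh37. Read starts of SFN therefore leave out most of its coding sequence, and cover its UTRs and both ends of the coding sequence.

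Bases were then called double-stranded (DS) where V1 read starts were in excess and single-stranded (SS) where S1 read starts were, by a two-sided Fisher's exact test at p under 0.05 per base against the totals of both libraries. Called bases of YWHAH numbered 227 and 207 in the control profiles and 499 and 500 in the KD profiles, which had more read starts. DS bases made up 71.8% (163 of 227, 95% exact binomial interval 65.5% to 77.6%) and 63.8% (132 of 207, 56.8% to 70.3%) of the called bases in control, and 61.3% (56.9% to 65.6%) and 67.4% (63.1% to 71.5%) in KD. The control and KD values overlapped. In the 3′ UTR the DS share was 78.4% and 69.2% for control against 63.8% and 72.2% for KD, and in the coding sequence 62.0% and 50.8% against 56% and 58.4%. The whole-transcript share was 54.7% to 60.1% for YWHAE and 69.9% to 74.1% for SFN, in both conditions together. Since calls increase with depth and YWHAH was deeper in KD, all 8 libraries were also thinned to the lowest number of read starts, which gave a mean of 72.7% in control and 71.3% in KD, beside 67.8% and 64.4% unthinned. When each base was tested against the read starts of YWHAH alone, the mean share was 41.9% in control and 48.2% in KD, so that neither the level nor the order of the 2 conditions held. Tested against their own read starts, YWHAE had 70.9% and 73.9% and SFN 60.8% and 54.5%, in control and KD. The order of the transcripts thus also turned with the totals used.

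Over all 4 profiles, 90 bases of YWHAH were called DS and 41 SS in every one, and 0 bases were DS in both controls and SS in both KD profiles or the reverse. In the coding sequence 22 were DS and 23 SS, and in the 3′ UTR 68 were DS and 18 SS. YWHAE had 293 DS and 241 SS bases with the same call in all 4 profiles and 1 base, in the 3′ UTR, that was SS in both controls and DS in both KD profiles. SFN had 101 DS and 36 SS bases and 0 that turned. Of the 90 DS bases of YWHAH, 38.9% were U and 33.3% C, and of the 41 SS bases 41.5% were G and 39.0% A, while the transcript holds 24.7% U, 23.3% C, 26.2% G and 25.9% A. The placement of the transcripts used such preferences of the nucleases, so that this composition is not independent of it.

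The stretch of YWHAH shown above holds 15 of these bases in 60. Below, capitals mark first the 9 DS and then the 6 SS bases, with the rest in lower case, at chr22:32340747-32340806 on the plus strand (listed bases 269 to 328).
YWHAH DS: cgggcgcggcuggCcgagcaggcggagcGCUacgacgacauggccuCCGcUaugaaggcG
YWHAH SS: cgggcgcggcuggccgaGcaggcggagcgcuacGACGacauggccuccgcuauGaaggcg
The most frequent S1 read start of each library is among the SS bases. The G at listed base 305, the last of the run of 4 capitals, was the start of 137 and 147 reads from the S1 control libraries and of 675 and 439 from KD, and the G at listed base 322 had 133 and 128 against 759 and 554. The stretch held 17.9% and 12.8% of S1 read starts of the transcript in control, with 21.8% and 13.8% in KD, against 5.62% and 3.32%, and 6.16% and 3.09%, of V1 read starts.

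The aligned stretch of YWHAE held 0.292%, 0.305%, 0.342% and 0.211% of its S1 read starts and 1.33% to 2.15% of its V1 read starts, with 16 DS and 2 SS bases. That of SFN held 2.71% to 6.91% of S1 and 2.18% to 4.27% of V1 read starts, with 4 DS and 5 SS bases. The homologous stretches thus differed in both the share of cuts and the balance of calls. The YWHAH stretch was picked for its called bases, however, and the others only by alignment to it. A higher share of read starts in YWHAH was therefore favoured by the choice. Over its 60 bases, r between the log2 read starts of YWHAH and YWHAE was 0.25 to 0.47 in the 8 libraries and between YWHAH and SFN 0.21 to 0.39, a description of bases that share most of their letters.

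The coding stretches richest in called bases in the other transcripts are shown for comparison. For YWHAE it lies in exon 5, at chr17:1257576-1257635 on the minus strand, with 14 DS and 22 SS bases.
YWHAE DS: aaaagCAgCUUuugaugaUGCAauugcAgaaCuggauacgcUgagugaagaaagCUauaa
YWHAE SS: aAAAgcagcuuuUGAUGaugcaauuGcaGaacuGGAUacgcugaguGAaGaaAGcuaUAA
For SFN it lies at chr1:27189722-27189781 on the plus strand, ahead of the gap, with 4 DS and 6 SS bases.
SFN DS: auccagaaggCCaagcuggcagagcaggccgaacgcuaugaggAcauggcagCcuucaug
SFN SS: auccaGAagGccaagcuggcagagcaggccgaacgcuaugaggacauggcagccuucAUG
More bases were called in YWHAE than in the other transcripts, which also had the most read starts.

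The profiles of YWHAH over all 1807 bases were alike between libraries of the same nuclease and unlike between nucleases. Pearson's r of S1 read starts was 0.898 between the controls, 0.908 between the KD libraries, 0.929 between control 1 and KD 1 and 0.948 between control 2 and KD 2. With V1 it was 0.938, 0.954, 0.970 and 0.989 in the same order. Between S1 and V1 libraries it was 0.115 to 0.231. By Pearson's r, libraries with the same replicate number were thus closer than libraries of the same condition. By Spearman's rho the KD libraries were closest to each other, at 0.690 with S1 and 0.783 with V1. Same-numbered control and KD libraries then stood at 0.664 and 0.641 with S1 and at 0.661 and 0.662 with V1. CorDiff, the sum of the squared correlations within conditions minus that between same-numbered libraries of the 2 conditions, was -0.131 with S1 and -0.128 with V1 for YWHAH, -0.0591 and -0.428 for YWHAE and -0.119 and -0.0337 for SFN. On log2 read starts the values of YWHAH were 0.0149 and 0.0625, and with the other pairing 0.0576 and 0.0118, so that the sign turned. A value below 0 means that same-numbered libraries of different conditions were more alike than replicates of a condition. For YWHAH the KD libraries held over 3 times the read starts of the control libraries, while no correlation between a control and a same-numbered KD library was below that between the controls.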

How the data were processed

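Read starts per base and RPKM values were analysed for the 14-3-3 genes in 8 PARS-seq, 2 RNA-seq and 4 Ribo-seq samples, grouped by the labels into 8 groups. The deposited RPKM were made by the authors from uniquely aligned reads (cutadapt and Bowtie2, hg19, per the labels) counted on RefSeq genes, and PARS-seq columns are their means over an S1 and a V1 library. The deposited read starts are the authors' whole numbers per base of UCSC knownCanonical transcripts, and library totals differ. The members and gene lists were chosen with earlier results of these data known.

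RPKM were compared as log2(RPKM + 1) where the mean in the assay was 1 or more, and a gene passed at 1.5-fold in every pair. Genes named outside the family were ADAR, the 5 most like YWHAH, and up to 3 partner genes with the largest RNA-seq difference, while AKT1 and PFKFB2 are named as members of a count, and ALB, AFP and COL1A2 as cell type markers chosen after their values were seen. Read starts were scaled by the median of ratios, 0.5 was added, and V1 was tested against S1 with limma 3.58.1 (R 4.3.3, mean trend), for transcripts with at least 10 scaled read starts in 2 libraries and 15 in total. On simulated read starts for this comparison, 99% of 200 transcripts changed 2-fold were recovered among 4721, and 12 unchanged transcripts were called. The simulated libraries were independent, with 1 common spread for all transcripts, so that this share is not the power in the real libraries. The design took the deposited cells as 1 number per base, and sums per transcript were tested on a log scale. Transcripts YWHAH, YWHAE and SFN, whose identifiers the supplement pairs with symbols, were placed on GENCODE transcripts of GRCh37 by a base preference model, which returned 29 of 35 check transcripts to their own start. S1 control 1 lists only the 4722 common transcripts. The study names same-numbered S1 and V1 libraries as cleavages of the same control sample, and they deviated together (r = 0.742 across transcripts, 2 pairs). The main fit has no replicate block, and the blocked values stand beside it. Alternatives covered scaling, pseudocount, filters, call threshold, thinning, pairing and left-out libraries. Python 3.11.15, numpy 2.4.6, scipy 1.17.1, numba 0.67.0 and matplotlib 3.10.9 were used, and columns of per-sample values left unused numbered 0.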

Additional observations from a re-analysis of the deposited data

Results flagged for a closer look

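YWHAZ stood on opposite sides of 0 in 2 assays: the mean log2(RPKM + 1) difference of KD and control was -0.39 over 2 PARS-seq pairs and 0.0846 over 2 Ribo-seq pairs, with both pairs of each assay on the same side. The difference between the assays was not tested, and the Ribo-seq value was -0.0018 when the columns were scaled to a common median.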

How the results depend on the processing

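Of 194 alternative values, 142 moved by less than the spread between replicates or, for counts, by less than 1.5-fold, or stayed on their side of the threshold, 43 moved by more, and 9 passed the threshold where the reported value did not. For CorDiff a move was a change of sign or of more than 0.1, and for RNA-seq differences, without a replicate, a change of more than 0.1. Leaving out a pair of RPKM columns, or swapping the pairing of KD and control read starts, could not count as a move by these rules. Those values therefore say nothing about stability. No tested difference changed direction. The sign turned without the second pair for YWHAB (-0.11) and SFN (-0.03) in Ribo-seq and YWHAE (-0.12) in PARS-seq, with scaled columns for YWHAZ in Ribo-seq (-0.0018), with library totals for YWHAE read starts (-0.25 with S1, -0.34 with V1), and for some values of CorDiff. With a replicate block, the V1 against S1 count was 2549 in place of 762 and the values of YWHAH, YWHAE and SFN were 0.93, -0.75 and 0.72 (limma adjusted p = 0.000107, 0.000501 and 0.000637). Scaling to library totals gave 303 calls, and log2 KD to control differences of YWHAH of 1.97 (S1) and 1.95 (V1). For SFN the S1 difference was then -1.12 in place of -0.75. Leaving out a library gave 696 to 741 calls, 0.60 to 1.25 for YWHAH, -0.93 to -0.58 for YWHAE and 0.46 to 0.97 for SFN, with the lone sample assumed to vary like the others. Scaled columns gave a Ribo-seq difference of 1.14 for YWHAH. With a pseudocount of 0.1, 773 genes were lower in RNA-seq, 448 higher and 351 lower in Ribo-seq. Without YWHAE in the sum, the YWHAH share was 6.35% and 27.4% in PARS-seq control and KD, 4.56% and 13.7% in RNA-seq, and 5.48% and 10.8% in Ribo-seq. Calls against transcript totals gave DS shares of YWHAH of 41.9% in control and 48.2% in KD, and thinning gave 72.7% and 71.3%. Against transcript totals the shares were 70.9% and 73.9% for YWHAE and 60.8% and 54.5% for SFN, so that the order of the transcripts turned. CorDiff of YWHAH, -0.131 (S1) and -0.128 (V1) as reported, was 0.0149 (S1) and 0.0625 (V1) on log2 read starts, and 0.0576 and 0.0118 with the other pairing. The KD libraries as a second V1 against S1 contrast were chosen after seeing the data. The causes were not tested.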
